A study of Rattus norvegicus with 8 samples.

Results

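The genes described here are 38 activity-induced early response genes that lie outside the Fos/Jun, Egr, Nr4a, Dusp and Klf families. They were taken by gene symbol, and 37 of the 38 were listed among the 17337 gene symbols of the count data. Tiparp was not listed and was not analysed here. All 37 listed genes passed the filter on low counts and were among the 12014 genes tested. The RNA came from the striatum of 8 wild-type male Sprague-Dawley rats, 4 per group. METH rats self-administered methamphetamine through a jugular catheter at 0.05 mg/kg per infusion, in sessions of 2 h over 16 days, and saline rats received saline under the same schedule, surgery and lever training. Both groups were anesthetized with ketamine and xylazine before the brain was taken, and both were selected for stable lever pressing. The time from the last session to brain collection is not given in the sources used here. Whole striatal tissue was sequenced, so that fewer cells of a type and less RNA per cell cannot be told apart.

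Early response genes are transcribed within a short time of synaptic activity or growth factor signaling, without the need for new protein. In striatal projection neurons, dopamine and glutamate inputs reach them through cAMP, calcium and the ERK kinases, which act on the factors CREB and SRF at the promoters. CREB binds the cAMP response element (CRE) and SRF binds the CArG box. The products then take part in transcription, mRNA decay, kinase signaling, prostaglandin synthesis and the release of peptides at synapses.

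Promoter sequences were available for 32 of the 38 genes (RefSeq, assembly GRCr8, which is not the rn6 build of the counts), and the 250 bases before each transcription start were searched on both strands. The genes were listed as activity-induced, so the shares below are descriptions and not a test. The set of all promoters also holds genes that were not tested here. The full CRE, TGACGTCA, was present in 7 of the 32 promoters (21.9%), against 1.59% of all 33469 promoters. These windows are shown because their letters match the CRE, an element through which cAMP and calcium are known to act. The CRE is in capitals, with up to 32 bases on each side.
Vgf promoter, chr12:25277071-25277142 (- strand): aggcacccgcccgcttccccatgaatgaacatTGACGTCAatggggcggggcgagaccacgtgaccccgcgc
Scg2 promoter, chr9:88256950-88257021 (- strand): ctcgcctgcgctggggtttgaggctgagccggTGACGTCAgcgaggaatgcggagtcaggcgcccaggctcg
Plk2 promoter, chr2:43702438-43702509 (+ strand): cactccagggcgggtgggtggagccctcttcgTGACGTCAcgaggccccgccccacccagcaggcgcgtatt
Arl4d promoter, chr10:87100846-87100917 (+ strand): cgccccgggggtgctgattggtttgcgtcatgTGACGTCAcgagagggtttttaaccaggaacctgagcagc
Maff promoter, chr7:112792704-112792775 (+ strand): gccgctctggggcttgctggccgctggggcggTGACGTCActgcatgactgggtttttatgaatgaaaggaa
Ier2 promoter, chr19:40399275-40399346 (+ strand): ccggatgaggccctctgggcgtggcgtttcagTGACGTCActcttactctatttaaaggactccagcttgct
Btg2 promoter, chr13:48087852-48087923 (- strand): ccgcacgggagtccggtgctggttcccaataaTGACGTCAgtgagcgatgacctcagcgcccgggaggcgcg
The CArG box of SRF was present in 2 of the 32 promoters (6.25%), those of Srf itself and Zfp36, against 1.497% of all promoters. The Srf window below holds a pair of boxes, in capitals.
Srf promoter, chr9:21923963-21924056 (+ strand): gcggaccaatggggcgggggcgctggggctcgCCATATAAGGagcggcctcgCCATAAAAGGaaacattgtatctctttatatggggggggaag
Zfp36 promoter, chr1:92799109-92799172 (- strand): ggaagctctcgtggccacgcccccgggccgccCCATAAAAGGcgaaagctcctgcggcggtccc
The CRE core TGACG, which also lies inside each full CRE, was present in 15 of the 32 promoters (46.9%), against 18.2% of all promoters. The E-box CACGTG, which Bhlhe40 and Myc are known to bind, was found in 7 (21.9%, against 5.59%), and TATAAA in 7 (21.9%, against 12.9%). The AP-1 letters TGANTCA were found in 0 of the 32, against 6.34% of all promoters. The core was held by 3 of the 7 genes called below that had a promoter sequence, Nptx2, Plk3 and Nfil3. The 250 bases before the start of Nptx2 are shown, with the core in capitals, because it is the called gene of synaptic signaling.
Nptx2 promoter, chr12:15162046-15162295 (- strand): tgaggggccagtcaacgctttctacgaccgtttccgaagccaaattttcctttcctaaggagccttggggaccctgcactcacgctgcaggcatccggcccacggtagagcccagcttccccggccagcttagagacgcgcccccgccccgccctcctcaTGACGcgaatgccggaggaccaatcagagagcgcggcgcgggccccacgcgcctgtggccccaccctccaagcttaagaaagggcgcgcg
A match is a description of the letters and does not show that a factor was bound.

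Total counts were 18135939 to 21211920 per rat, and 3 counts, taken as the smallest detected number, corresponded to 0.142 to 0.169 counts per 1000000 (CPM, with the library total scaled for composition). Some libraries stood apart, on different measures. METH replicate 3 lay at 39.5 on the first principal component, against 0.257 to 5.29 in the other METH rats. Saline replicate 3 lay at -24.6 on it, against -11.7 to -4.17 in the other saline rats, with saline replicate 1 at -4.17. Saline replicate 1 had a summed level of 77.2 CPM over 4 markers of cortical excitatory neurons (Slc17a7, Neurod6, Tbr1 and Neurod2), against 3.30 to 4.11 CPM in the other saline rats and 3.69 to 13.1 CPM in METH rats. Each of the 4 markers had its highest count in that rat. Of the 8 markers of striatal projection neurons, all were detected, with a sum of 14019.7 to 14825 CPM in saline rats and 14765 to 18821 CPM in METH rats. Ppp1r1b alone had a mean of 7169 CPM in saline rats and 8499 CPM in METH rats. Of the 8, 0 were called, with 2 higher (Ppp1r1b and Drd2) and 0 lower at an unadjusted p below 0.05. The log2 fold change was above 0 in 6 and below 0 in 2, Drd1 (-0.03) and Adora2a (-0.01). The 5 choroid plexus markers summed to 4.06 to 5.603 CPM in saline rats and 6.09 to 8.91 CPM in METH rats, without overlap. In the microglia list 1 of 6 markers was called, Cx3cr1, which fell in METH rats (log2 fold change -0.73, FDR = 0.0408). That call was lost without saline replicates 2, 3 or 4 and without METH replicates 1, 3 or 4, with an FDR of up to 0.144. The other microglia markers went both ways. Csf1r, P2ry12 and Aif1 had log2 fold changes of -0.22, -0.20 and -0.30, and C1qa and C1qb of 0.11 and 0.09. The list summed to 292 to 340.4 CPM in saline rats and 262 to 318 CPM in METH rats. The part of these shifts in the results below was not tested, apart from the fits without each rat.

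Of the 37 early response genes tested, 8 rose in METH rats and 0 fell. A gene was called at a false discovery rate (FDR) below 0.05 in edgeR's quasi-likelihood test, adjusted over all genes tested, with a mean log2 CPM above 1. The 8 genes, Ier5, Nfil3, Kdm6b, Plk3, Trib1, Nptx2, Ptgs2 and Midn, are 21.6% of the 37, beside a background of 0.516% of all genes called in either direction, 0.449% called higher and 0.0666% called lower. Their log2 fold changes lay between 0.65 and 1.12, so that the levels in METH rats were from 1.57 to 2.18 times those in saline rats. At an unadjusted p below 0.05, 20 of the 37 were higher and 2 lower, Ier3 and Gem, beside 6.26% and 4.88% of all genes. The edgeR likelihood ratio test, DESeq2 and limma-voom also called 0 of them lower. The median log2 fold change of the 37 was 0.33, beside -0.0055 over all genes tested, and 31 of the 37 were above 0 (83.8%), beside 48.6% of all genes. In 14 of the 37 every METH rat lay above every saline rat (37.8%), beside 3.75% of all genes, and in 1, Ier3, every METH rat lay below, beside 2.65% of all genes (6.39% in either direction). Below, the values of a gene are given in the order of replicates 1 to 4, and SE is the standard error of the log2 fold change.

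The number called depended on the rats and on the test. It ranged from 5 to 10 with 1 rat left out, and 5 were called without saline replicate 2 and without METH replicate 3. Without both saline replicate 1 and METH replicate 3, 3 genes were called, Ier5, Trib1 and Midn. Ier5, Nfil3, Trib1, Ptgs2 and Midn were called in each of the 8 fits that left out 1 rat. The likelihood ratio test and DESeq2 each called 15, which included all 8. Both added Csrnp1, Srf, Gadd45g, Rheb, Arl4d and Vgf, with Npas4 in the former and Inhba in the latter, and the same tests called 1.42% and 1.55% of all genes.

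**Figure D1:**
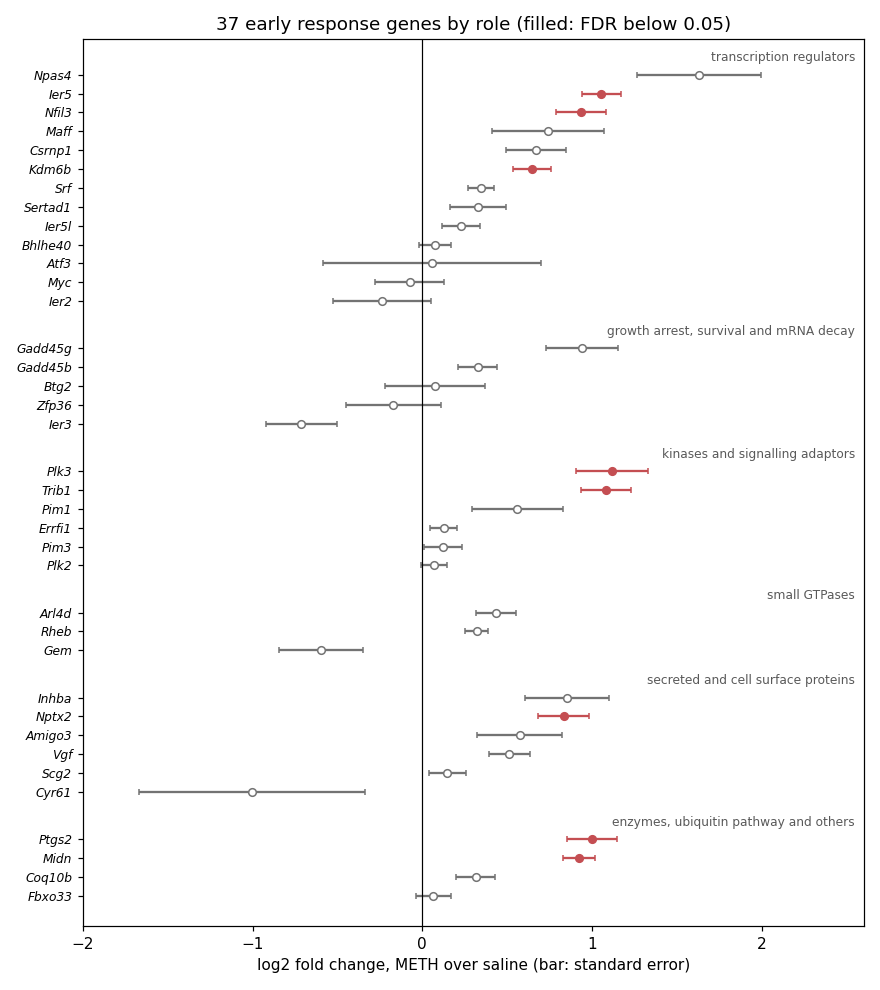
Log2 fold change of METH over saline for the 37 early response genes tested, grouped by role, with the standard error as a bar and the gene symbol on the vertical axis. Filled points are the 8 genes called at an FDR below 0.05, from Plk3 at 1.12 down to Kdm6b at 0.65, and Npas4 lies farthest to the right at 1.63 with an open point.

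Among the 13 transcription regulators, 3 rose and none of the 13 was called lower in that test (0 also at an unadjusted p below 0.05). Ier5, an early response protein that acts with heat shock factor, was at 64.5, 61.7, 53.0 and 64.9 CPM in the saline rats and 113, 106, 148 and 141 CPM in the METH rats. Every METH rat lay above every saline rat, and METH replicates 3 and 4 were the highest. The fitted log2 difference between METH and saline was 1.06 (SE 0.11, FDR = 0.000472). Nfil3, a basic leucine zipper repressor linked to the circadian clock, was at 8.56, 11.6, 8.69 and 11.2 CPM in the saline rats and 16.5, 19.4, 22.6 and 18.03 CPM in the METH rats, again without overlap. The fold change was 0.93 in log2 units (SE 0.15, FDR = 0.00895). Kdm6b, a demethylase of histone H3 lysine marks, was at 37.2, 35.3, 36.8 and 29.5 CPM in the saline rats and 44.6, 54.2, 63.2 and 55.3 CPM in the METH rats. The lowest METH rat was above the highest saline rat, and the log2 fold change was 0.65 (SE 0.11, FDR = 0.0185). Its call was lost without saline replicate 2, saline replicate 4, METH replicate 3 or METH replicate 4, with FDR values from 0.0530 to 0.0723.

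Npas4, a neuron-specific factor induced by calcium entry, had the largest log2 fold change of the 37 genes, 1.63 (SE 0.36), but an FDR of 0.0827. Its levels were 3.79, 4.15, 7.39 and 13.2 CPM in the saline rats and 18.8, 13.3, 21.2 and 35.7 CPM in the METH rats. Both groups were spread widely, and saline replicate 4 lay just below METH replicate 2. It was called without saline replicate 4 (FDR = 0.0138) and without METH replicate 2 (FDR = 0.0434), and in 5 of 17 alternatives in all, with an FDR between 0.00194 and 0.307. Srf, the factor that binds the CArG boxes of its own promoter shown above, was at 166, 166, 188 and 169 CPM in the saline rats and 202, 222, 236 and 216 CPM in the METH rats. The groups did not overlap, and the log2 fold change was small at 0.35 (SE 0.08, FDR = 0.0720). Without saline replicate 3, its highest saline rat, Srf was called (FDR = 0.0475). Csrnp1, an early response nuclear protein, was at 5.16, 6.55, 4.54 and 6.14 CPM in the saline rats and 10.2, 7.85, 9.49 and 8.12 CPM in the METH rats, also without overlap (log2 fold change 0.67, SE 0.18, FDR = 0.165). Maff, a small Maf factor that pairs with larger leucine zipper proteins, was at 1.15, 3.00, 1.30 and 2.74 CPM in the saline rats and 3.38, 3.00, 4.18 and 3.22 CPM in the METH rats. In it 3 of 4 METH rats lay above the saline rats, and METH replicate 2 was level with saline replicate 2 (log2 fold change 0.74, FDR = 0.430).

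The other 6 transcription regulators were not called and had unadjusted p-values above 0.05. Ier5l, a relative of Ier5, had a log2 fold change of 0.23 and Sertad1, a cofactor of cell cycle transcription, one of 0.33. Bhlhe40, an E-box repressor of the clock, was at 36.4 ± 2.50 CPM in saline rats and 38.3 ± 3.84 CPM in METH rats (SD, n = 4), and Myc at 5.73 ± 1.23 CPM in saline rats and 5.44 ± 0.613 CPM in METH rats (SD, n = 4). Atf3, a stress-induced leucine zipper factor, and Ier2 were highest in saline replicate 1 and are described below.

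**Figure D2:**
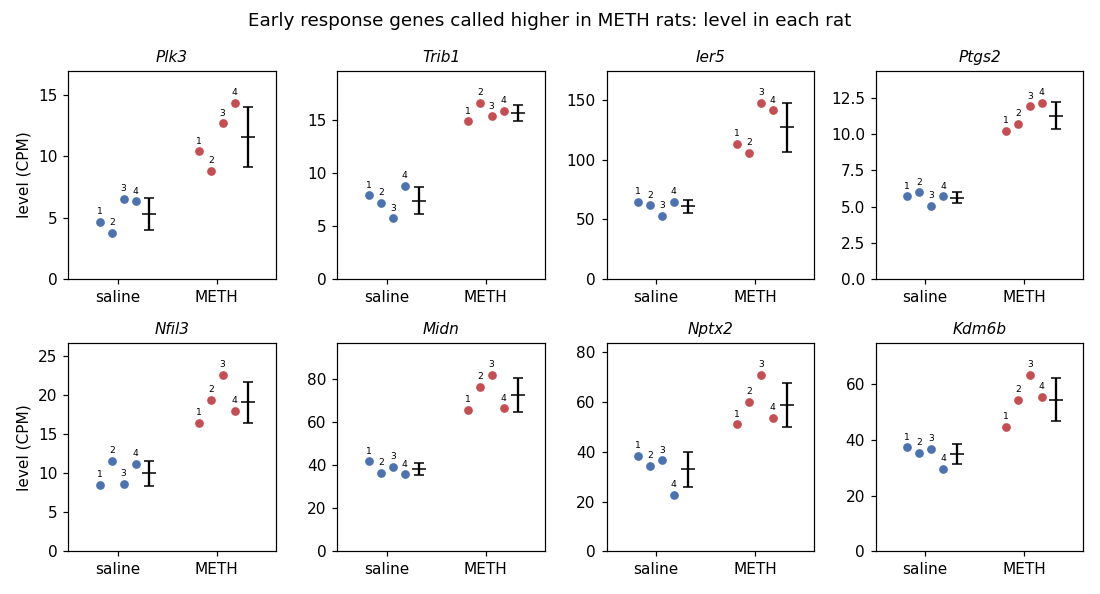
Level in CPM of the 8 called genes in each rat (points numbered by replicate) with the mean and SD of each group of 4 as a bar, on axes that start at 0. In each panel the 4 METH rats lie above the 4 saline rats, for example Ptgs2 at 10.2 to 12.2 CPM against 5.07 to 5.999 CPM.

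Among the 5 genes of growth arrest, survival and mRNA decay, 0 were called by edgeR's quasi-likelihood test (2 higher and 1 lower at an unadjusted p below 0.05, while DESeq2 and the likelihood ratio test each called Gadd45g). Gadd45g, a stress sensor that binds kinases of the p38 and JNK pathways, was at 32.5, 25.7, 21.5 and 14.03 CPM in the saline rats and 50.02, 33.6, 55.2 and 41.0 CPM in the METH rats. METH replicate 2 lay only just above saline replicate 1, and the log2 fold change was 0.94 (SE 0.21, FDR = 0.0867). Without saline replicate 1 it was 1.14 with an FDR of 0.0290, and without METH replicate 2 the FDR was 0.0466. Gadd45b, linked to activity-dependent DNA demethylation, was at 32.4, 27.0, 23.9 and 29.3 CPM in the saline rats and 33.7, 30.2, 39.9 and 37.4 CPM in the METH rats. In it 3 of 4 METH rats were above the highest saline rat (log2 fold change 0.33, FDR = 0.322). Ier3, an apoptosis regulator, was the only member of the 37 whose METH rats all lay below the saline rats. Its levels were 5.93, 8.35, 5.26 and 5.91 CPM in the saline rats and 3.96, 3.19, 3.95 and 4.43 CPM in the METH rats, with a log2 fold change of -0.71 (SE 0.21, FDR = 0.222). Btg2, an antiproliferative adaptor of the mRNA deadenylase, and Zfp36, which binds AU-rich elements of unstable mRNAs, are described with saline replicate 1 below.

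Among the 6 kinases and signaling adaptors, 2 rose. Plk3, a polo-like kinase of the stress response, was at 4.67, 3.80, 6.52 and 6.33 CPM in the saline rats and 10.4, 8.85, 12.7 and 14.4 CPM in the METH rats. All 4 METH rats lay above the saline rats, with METH replicate 4 the highest, and the log2 fold change was 1.12 (SE 0.21, FDR = 0.0324). This call held in 10 of 17 alternatives, the fewest of the 8 genes. It was lost without saline replicates 1, 2 or 4 and without METH replicates 1, 3 or 4, with FDR values up to 0.102. Trib1, a pseudokinase that acts as an adaptor for the COP1 ubiquitin ligase, was at 7.90, 7.20, 5.75 and 8.79 CPM in the saline rats and 14.9, 16.7, 15.4 and 15.9 CPM in the METH rats. The METH rats were close together, with a coefficient of variation of 4.85%. METH minus saline came to 1.08 in log2 units (SE 0.15, FDR = 0.00332). Pim1, a serine/threonine survival kinase, had a log2 fold change of 0.56 (FDR = 0.460), and Pim3 one of 0.12. Errfi1, a feedback inhibitor of the EGF receptor, was at 63.5 ± 3.13 CPM in saline rats and 69.3 ± 4.85 CPM in METH rats (SD, n = 4). Plk2, a kinase of synaptic scaling and one of the 3 genes with the most counts, was at 341, 295, 337 and 332 CPM in the saline rats and 374, 313, 340.1 and 343 CPM in the METH rats. The groups overlapped, with a log2 fold change of 0.07 (SE 0.08, FDR = 0.759).

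Among the 3 small GTPases, 0 were called by the quasi-likelihood test, with 2 higher and 1 lower at an unadjusted p below 0.05. The likelihood ratio test and DESeq2 each called Rheb and Arl4d higher. Rheb, the activator of mTORC1, was at 150.1, 152, 156 and 159 CPM in the saline rats and 191, 192, 181 and 208 CPM in the METH rats. Saline rats varied little and did not overlap the METH rats (log2 fold change 0.32, SE 0.07, FDR = 0.0739). Arl4d, an Arf-like GTPase, was at 129, 87.3, 95.3 and 96.7 CPM in the saline rats and 125, 129, 141 and 157 CPM in the METH rats, and saline replicate 1 lay inside the METH range. On the log2 scale METH exceeded saline by 0.43 (SE 0.12, FDR = 0.173), and without saline replicate 1 it was 0.57 with an FDR of 0.0217, which is a call. Gem, an RGK GTPase that inhibits voltage-gated calcium channels, was at 5.05, 5.90, 5.17 and 5.91 CPM in the saline rats and 4.16, 2.57, 2.65 and 5.17 CPM in the METH rats. In it 3 of 4 METH rats lay below the saline rats (log2 fold change -0.60, SE 0.25, FDR = 0.398).

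Among the 6 secreted and cell surface proteins, 1 rose. Nptx2, a neuronal pentraxin that is secreted at excitatory synapses and gathers AMPA receptors, was at 38.4, 34.4, 36.5 and 22.8 CPM in the saline rats and 51.0, 59.98, 70.9 and 53.7 CPM in the METH rats. The groups did not overlap, METH replicate 3 was the highest and saline replicate 4 the lowest. The fitted log2 difference between METH and saline was 0.83 (SE 0.15, FDR = 0.0230), and the call was lost without saline replicate 2 (FDR = 0.0688) and without METH replicate 3 (FDR = 0.0741). Vgf, a precursor of secreted peptides with a CRE in its promoter, had the most counts of the 37 genes, gene length not considered. It was at 411, 382, 378 and 453 CPM in the saline rats and 451, 566, 572 and 729.6 CPM in the METH rats. METH replicate 1 lay inside the saline range and the other 3 METH rats above it, and the log2 fold change was 0.51 (SE 0.12, FDR = 0.0999). Without METH replicate 1 the FDR of Vgf was 0.0173. Scg2, the secretogranin precursor of secretoneurin, was at 251, 222, 296 and 265 CPM in the saline rats and 247, 321, 258 and 319 CPM in the METH rats. The groups overlapped, and its log2 fold change was 0.15 (SE 0.11, FDR = 0.619).

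Inhba encodes the subunit of activin A, a secreted factor of the TGF-beta family. It was at 4.34, 2.7, 6.09 and 5.62 CPM in the saline rats and 8.12, 8.76, 6.495 and 10.5 CPM in the METH rats, without overlap but with METH replicate 3 close to saline replicate 3 (log2 fold change 0.85, SE 0.25, FDR = 0.214). Its FDR was below the threshold in 1 of 17 alternatives, DESeq2 (FDR = 0.0497). Amigo3, a leucine-rich repeat adhesion protein, was at 3.51, 4.70, 4.59 and 3.12 CPM in the saline rats and 3.52, 6.05, 7.06 and 7.12 CPM in the METH rats. METH replicate 1 lay within the saline range and the other METH rats above it, with an FDR of 0.426. Cyr61, a matricellular protein of the CCN family, is described below.

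Of the 5 enzymes, ubiquitin pathway genes and others, 4 were listed and 2 rose. Ptgs2, the inducible cyclooxygenase COX-2 of prostaglandin synthesis, was at 5.71, 5.999, 5.07 and 5.72 CPM in the saline rats and 10.2, 10.7, 11.9 and 12.2 CPM in the METH rats. Both groups were tight, and the log2 fold change was 1.00 (SE 0.15, FDR = 0.00549), so that the level in METH rats was 2.00 times that in saline rats. Midn, or midnolin, which carries nuclear proteins to the proteasome without ubiquitination, was at 41.8, 36.4, 39.4 and 35.8 CPM in the saline rats and 65.7, 76.4, 82.0 and 66.5 CPM in the METH rats. Every METH rat was above every saline rat, with a log2 fold change of 0.92 (SE 0.10, FDR = 0.000472). Coq10b, which takes part in coenzyme Q function in mitochondria, was at 24.9, 20.2, 21.8 and 21.7 CPM in the saline rats and 31.7, 26.1, 29.1 and 23.2 CPM in the METH rats. In it 3 of 4 METH rats exceeded every saline rat (log2 fold change 0.31, FDR = 0.338). Fbxo33, an F-box protein of ubiquitin ligases, had a log2 fold change of 0.06 (FDR = 0.843).

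In an exact permutation test of log2 CPM over the 70 ways to label 4 of the 8 rats (two-sided), each of the 15 genes without overlap had p = 0.0286, the smallest that 4 rats against 4 allow. That value follows from the lack of overlap, which 6.39% of all genes tested also showed, and is no further evidence. Of the 7 of these that were not called, Npas4, Csrnp1, Srf, Gadd45g, Rheb and Inhba were the higher ones and Ier3 the lower one. The 7 CRE carriers whose sites are printed above were not among the 8 genes called by the quasi-likelihood test, while the likelihood ratio test and DESeq2 both called 2 of them, Arl4d and Vgf. Their log2 fold changes ran from -0.24 for Ier2 to 0.74 for Maff, with Vgf, Arl4d, Scg2, Btg2 and Plk2 between them. Of the 15 genes with the CRE core, 3 were called (Nptx2, Plk3 and Nfil3), beside 8 of all 37 early response genes (21.6%). These 3, Srf and Rheb had every METH rat above every saline rat, beside 14 of all 37 (37.8%). Over all genes tested, 0.516% were called and 6.39% had no overlap. No difference between genes with and without the core was tested. The other 10, neither called nor without overlap, were Maff, Ier2, Btg2, Plk2, Errfi1, Arl4d, Vgf, Scg2, Cyr61 and Coq10b.

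The 37 genes differed in how the rats within a group varied. The median coefficient of variation over the genes was 16.1% in saline rats and 14% in METH rats. In saline rats it was above 50% for 5 genes, Npas4, Atf3, Ier2, Btg2 and Cyr61, and it ran from 6.98% to 24.7% for the 8 called genes. METH replicate 3 was the highest METH rat for 14 of the 37 genes and METH replicate 4 for 13, while METH replicate 1 was the lowest for 13 and METH replicate 2 for 14. Saline replicate 1 was the highest saline rat for 14 of the 37. The summed level of the 37 genes was 1947 to 2161 CPM in saline rats and 2453 to 2880.0 CPM in METH rats. Without Vgf, Plk2 and Scg2, the 3 genes with the most counts, it was 1044 to 1158 CPM and 1380.4 to 1558 CPM.

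**Figure D3:**
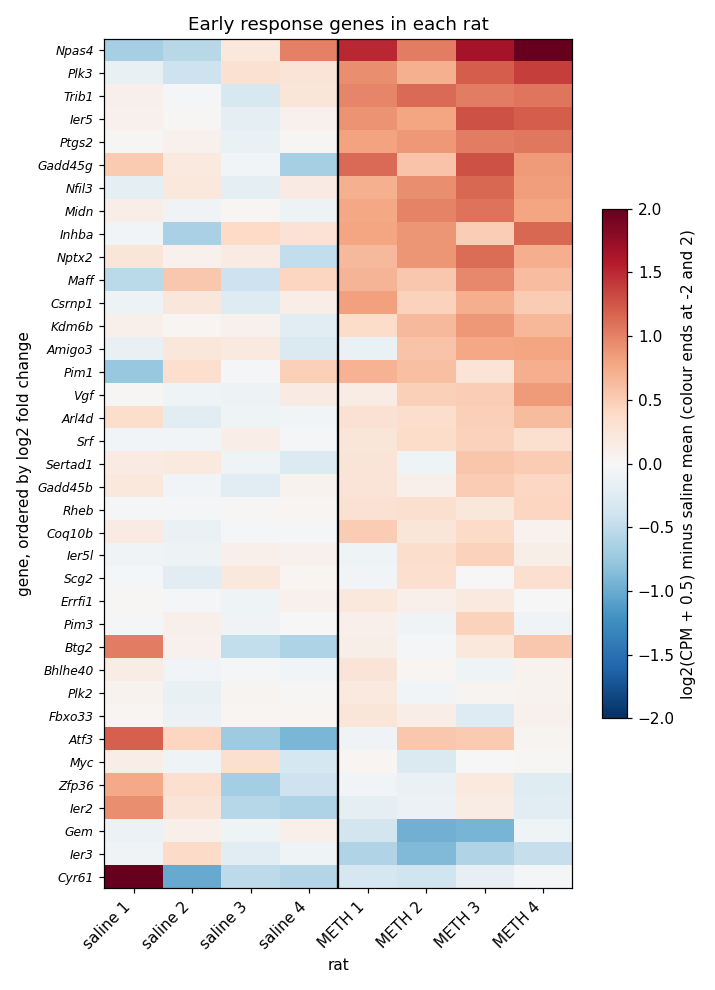
Each row is 1 of the 37 genes, ordered by log2 fold change, and each column is 1 rat, with the color giving log2(CPM + 0.5) minus the mean of the saline rats. The upper 13 rows, from Npas4 to Kdm6b, are red in all 4 METH columns, while Cyr61, Atf3, Ier2, Btg2 and Zfp36 are red in the column of saline replicate 1.

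In 5 genes the highest saline rat was saline replicate 1, the rat with the high cortical neuron markers. There their levels were at least 2 times the mean of the other saline rats. In all of them but Cyr61, saline replicate 2 was the next highest saline rat. The 5 genes were chosen after their values were seen. Cyr61 was at 11.3, 0.850, 1.40 and 1.32 CPM in the saline rats and 1.66, 1.57, 1.92 and 2.16 CPM in the METH rats. In saline replicate 1 it was 9.45 times the mean of the other saline rats, which all lay below the METH rats. METH minus saline came to -1.01 over the 8 rats and 0.61 once saline replicate 1 was left out. Atf3 was at 2.47, 1.25, 0.290 and 0.189 CPM in the saline rats and 0.734, 1.38, 1.36 and 0.843 CPM in the METH rats, with counts of only 6 and 4 in saline replicates 3 and 4. In log2 units the change was 0.06 over the 8 rats and 0.91 once saline replicate 1 was left out. It was below 0 without saline replicate 3 (-0.26), saline replicate 4 (-0.30), METH replicate 2 (-0.088) or METH replicate 3 (-0.065). Btg2 was at 33.1, 17.1, 11.3 and 10.3 CPM in the saline rats and 17.4, 15.8, 18.6 and 23.6 CPM in the METH rats. Here too the other saline rats and the METH rats were nearly apart, with 3 of 4 METH rats above the remaining 3 saline rats. The fitted log2 change was 0.08 over the 8 rats and 0.55 once saline replicate 1 was left out. Ier2 was at 25.8, 16.1, 8.79 and 8.55 CPM in the saline rats and 11.7, 12.2, 14.8 and 11.4 CPM in the METH rats, and the METH rats lay inside the range of saline replicates 2 to 4. METH minus saline came to -0.24 over the 8 rats and 0.17 once saline replicate 1 was left out. Zfp36 was at 14.4, 10.5, 4.98 and 6.10 CPM in the saline rats and 7.98, 7.47, 9.54 and 6.96 CPM in the METH rats, and its log2 fold change was -0.17 over the 8 rats and 0.15 once saline replicate 1 was left out. None of the 5 was called without saline replicate 1 by the quasi-likelihood test. The FDR was 0.334 for Btg2 and 0.540 to 0.845 for the other 4, and Btg2 alone had an unadjusted p below 0.05 (0.0141). The part of cortical tissue in these 5 values was not tested.

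**Figure D4:**
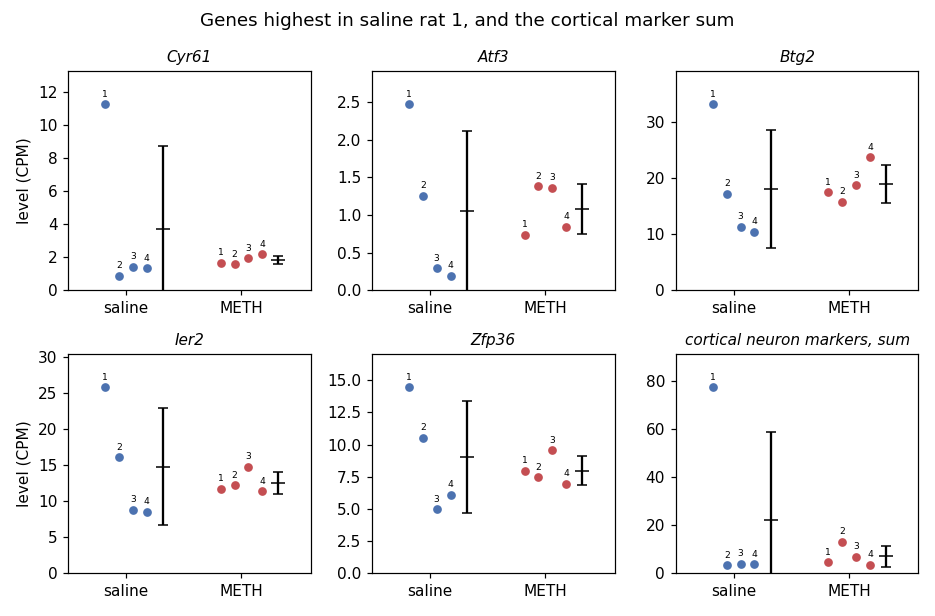
Level in CPM of Cyr61, Atf3, Btg2, Ier2 and Zfp36 and the summed level of the cortical excitatory neuron markers in each rat (points numbered by replicate), with the mean and SD of each group of 4. Saline replicate 1 is the highest rat in all 6 panels, at 11.3 CPM for Cyr61 and 77.2 CPM for the sum of the 4 markers, and the SD bars of Cyr61, Atf3 and the marker sum reach the foot of the axis.

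Relatives of the 37 genes were compared with them through the log2 ratio of their levels within each rat, so that the change in the ratio does not depend on gene length. In 31 such pairs, chosen after the values were seen, 14 had ratios that separated the METH from the saline rats (exact permutation test, two-sided p = 0.0286 each). That value follows from the separation itself, and no share over other gene pairs was computed. Plk3, Ier5, Trib1, Nptx2 and Ptgs2 were already called, and Gadd45g and Inhba already lacked overlap. Their separate ratios are therefore no further evidence. Adjusted over the 31 pairs by Benjamini-Hochberg the smallest value was 0.0633, so that none of the 31 passed and 4 rats per group cannot give a smaller raw p. The ratios of the other 17 pairs had p from 0.0571 to 1 in the same exact permutation test. Among them were Npas4 over Npas2, with a shift of 1.62, Maff over Mafk with 0.43, Rheb over Rhebl1 with 0.06 and Zfp36 over Zfp36l2 with -0.02. Plk3 shifted against Plk2 by 1.05 on the log2 scale and against Plk5 by 0.29 (exact permutation p = 0.486). Plk5, a polo-like family member expressed in brain, was itself at 33.1 ± 8.49 CPM in saline rats and 59.1 ± 17.2 CPM in METH rats (SD, n = 4, FDR = 0.0936), without overlap. Plk5 was called by the likelihood ratio test (FDR = 0.00347), by DESeq2 (FDR = 0.00225) and without saline replicate 1 (FDR = 0.0241). Plk1, the mitotic member, had a log2 fold change of 0.11 (FDR = 0.892). The ratio of Ier5 to Ier5l shifted by 0.83 and that of Trib1 to Trib2 by 0.93. Trib2 had a log2 fold change of 0.16 (FDR = 0.525), while Trib3 had too few counts to be tested and Kdm6a was not listed. In the prostaglandin pathway Ptgs2 shifted by 1.02 against Ptgs1, the constitutive cyclooxygenase, which was at 8.88 ± 2.35 CPM in saline rats and 8.55 ± 1.34 CPM in METH rats (SD, n = 4).

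The pentraxins form complexes that bind AMPA receptors. Nptx2 shifted by 0.71 against Nptx1, whose log2 fold change was 0.13 (FDR = 0.8286), and by 1.16 against Nptxr, their membrane-bound receptor. Nptxr was at 192, 145, 126 and 116 CPM in the saline rats and 101, 113, 138 and 108 CPM in the METH rats, with a log2 fold change of -0.33 (SE 0.14, FDR = 0.423). The 4 METH rats had nearly the same Nptx2 to Nptxr ratio, with an SD of 0.0453 on the log2 scale against 0.260 in saline rats. That was the smallest METH SD of the 31 pairs, some other pairs had the larger SD in METH rats, and the difference in spread was not tested. Gadd45g shifted by 0.65 against Gadd45b and by 0.96 against Gadd45a, which had a log2 fold change of 0.02 that was -0.0171 with scaling to total counts. Inhba shifted by 0.98 against Inhbb, the other activin subunit, and Vgf by 0.35 against Scg2. Arl4d shifted by 0.86 against Arl4a, which was at 22.7 ± 2.95 CPM in saline rats and 16.9 ± 0.822 CPM in METH rats (SD, n = 4, FDR = 0.178).

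Gem and Rem2 are RGK GTPases that both inhibit calcium channels. Rem2 rose in METH rats, from 92.8, 88.5, 89.4 and 88.0 CPM in the saline rats to 167, 153, 209 and 188 CPM in the METH rats. The fold change was 1.00 in log2 units (SE 0.09, FDR = 0.000188), and it was called in all 17 alternatives. The Gem to Rem2 ratio shifted by -1.63 on the log2 scale, although Gem itself was not called (FDR = 0.398). Rem1 and Rrad, further relatives of Gem, had log2 fold changes of -0.048 (FDR = 0.971) and -0.012 (FDR = 0.992). Rem2 was the 1 gene called by edgeR's quasi-likelihood test among the 40 relatives tested, beside 0.516% of all genes. The relatives had a median log2 fold change of 0.01, beside 0.33 for the 37 early response genes. At an unadjusted p below 0.05, 4 relatives were higher and 3 lower, beside 6.26% and 4.88% of all genes. In 3, Rem2, Plk5 and Mafk, every METH rat lay above every saline rat, and in 1, Arl4a, below, beside 3.75% and 2.65% of all genes. Mafk had a log2 fold change of 0.40 (FDR = 0.173).

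**Figure D5:**
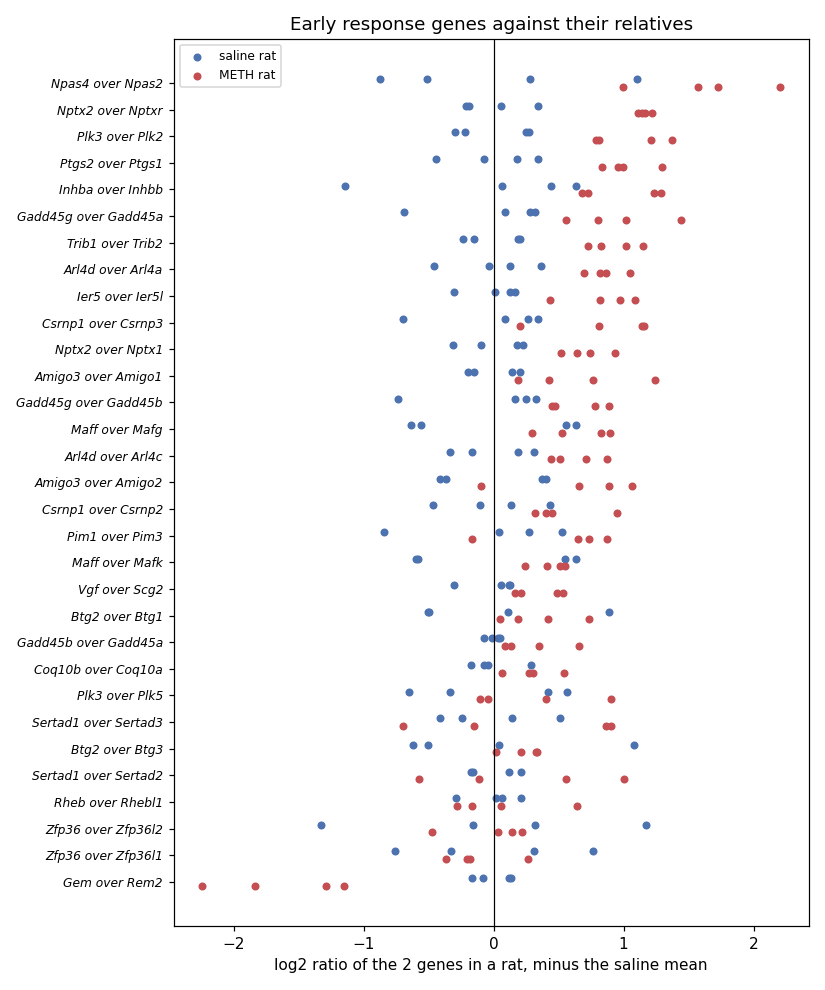
Log2 ratio of an early response gene to its relative within each rat, minus the mean of the 4 saline rats, for all 31 pairs ordered by the shift, with 1 point per rat and the pair named on the vertical axis. METH and saline rats are separate in 14 pairs, with METH to the left in Gem over Rem2 at the foot, and they overlap in the other 17.

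Partners and receptors of the 37 genes numbered 29 by role, of which 26 were tested and 0 were called by the quasi-likelihood test, with 2 higher and 1 lower at an unadjusted p below 0.05, and their median log2 fold change was -0.06. DESeq2 and the likelihood ratio test both called Pcsk1. It encodes the prohormone convertase that cuts precursors such as Vgf and Scg2, and it was at 7.90, 7.75, 10.7 and 13.9 CPM in the saline rats and 18.7, 21.2, 13.8 and 24.9 CPM in the METH rats. The top saline rat lay just above the lowest METH rat (log2 fold change 0.96, SE 0.21, FDR = 0.0738). The other early response families in the same fit gave 13 called higher and 0 lower of 25 tested (17 and 0 at an unadjusted p below 0.05), with a median log2 fold change of 0.88. Over all genes the shares were 0.449% and 0.0666% called, and 6.26% and 4.88% at an unadjusted p below 0.05. Saline replicate 1 was the highest saline rat for 15 of the 25. The log2 fold changes of the 13 ran from 0.88 for Klf10 to 2.75 for Nr4a3. In all 17 alternatives 9 of them were called, Fosb, Fosl2, Junb, Egr1, Egr2, Egr4, Nr4a1, Nr4a3 and Arc. The call of Dusp5 was lost without saline replicates 2 or 4 or METH replicate 3 and with the replicate number as a block (FDR = 0.107), those of Dusp4 and Klf10 without saline replicate 1 and METH replicate 3 together. The call of Fos was lost without saline replicates 2, 3 or 4 and without METH replicates 1, 3 or 4, with an FDR of up to 0.176, and with scaling to total counts (FDR = 0.0584). No difference between these families and the 37 genes was tested.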

How the data were processed

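Striatal mRNA from 8 rats (4 saline, 4 METH) was sequenced as paired-end poly(A) libraries. Per the labels and methods, the authors used Cutadapt 1.18 for trimming and STAR 2.7.0e for alignment (rn6 build), and deposited raw read counts per gene symbol from featureCounts (Subread 1.6.4), 1 column per rat. The annotation, strand and multi-mapping settings are not given in the sources used here, so that reads of overlapping genes or close copies cannot be told apart. Replicates are separate rats. The floor of 3 counts covers counting error only.

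From these counts, genes that passed edgeR's filterByExpr (minimum count 10) were scaled by TMM, and METH was set against saline in a quasi-likelihood fit (edgeR 4.0.16 in R 4.3.3, limma 3.58.1), with Benjamini-Hochberg adjustment over 12014 genes. Called genes had an FDR below 0.05 and a mean log2 CPM above 1. Standard errors were derived from the F statistic. Ratios used log2 CPM with a prior count of 2, the heat map log2(CPM + 0.5), and single genes and pairs an exact permutation test. Alternatives were edgeR's likelihood ratio test, DESeq2 1.42.0, limma-voom, other scalings and filters, a replicate block and leaving out rats. Values in every rat are given for genes called, with an unadjusted p below 0.05, without overlap, or among the 3 with the most counts. Relatives of called genes and called genes of the other lists are also named, and any further gene was picked with its values in view. The 38 genes and all lists were chosen with earlier results of these data known. Promoters came from RefSeq (GRCr8). The CArG box was searched by its consensus, CC, 6 bases of A or T, GG. Marker lists were summed over the genes listed in the counts, and 1 further marker is not reported here.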

Additional observations from a re-analysis of the deposited data

Results flagged for a closer look

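In 4 of the 74 groups of 4 rats examined over the 37 genes (5.41%, where chance gives about 5%), 1 rat lay far from the other 3 in log2 CPM. The gap to the nearest rat, as a share of the group's range, was above Dixon's critical value for 4 samples. Srf was highest in saline replicate 3, with a gap of 0.831 of the range. Myc was lowest in METH replicate 2, with a gap of 0.878. Bhlhe40 was highest in saline replicate 1, with a gap of 0.925. Fbxo33 was lowest in saline replicate 2, with a gap of 0.925. None of these 4 genes was among the 8 called.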

How the results depend on the processing

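The number of early response genes called, all of them higher, was 15 with edgeR's likelihood ratio test and 15 with DESeq2 (8 in the main test), and 5 to 10 when 1 rat was left out. Without saline replicate 1 and METH replicate 3 together, an alternative chosen after seeing the data, it was 3. The number called lower was 0 in each alternative. With 1 rat left out the median log2 fold change was 0.31 to 0.52, and the highest value was without saline replicate 1. Over all genes, 62 were called, against 170 with the likelihood ratio test, 186 with DESeq2, 37 with the replicate block, 37 without saline replicate 2 and 36 without both rats. DESeq2 gave no adjusted p for Cyr61.

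With 1 rat left out, the log2 fold change crossed 0 for Atf3 (-0.30 to 0.91), Myc (-0.19 to 0.050), Ier2 (-0.43 to 0.17), Btg2 (-0.12 to 0.55), Zfp36 (-0.37 to 0.15), Pim3 (-0.012 to 0.18), Cyr61 (-1.34 to 0.61), Ptgs1 (-0.17 to 0.13), Inhbb (-0.21 to 0.062) and Gadd45a (-0.034 to 0.095). Without both rats it was 0.082 for Ier2, 0.053 for Zfp36, -0.018 for Pim3, 0.59 for Cyr61 and 0.027 for Ptgs1. With scaling to total counts it was -0.017 for Gadd45a. The cause of these reversals was not tested.

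With the replicate number as a block 7 genes were called, 6 of them among the 8. Npas4 was added (FDR = 0.00437), and Kdm6b (FDR = 0.0912) and Ptgs2 (FDR = 0.0554) were lost. Same-numbered rats did not deviate together (correlations of 0.010, -0.185, -0.201 and 0.036), and 1 of 4 saline rats correlated best with its own number, so the numbers were not used to pair rats.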

Other observations

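Summed levels of further marker lists, read in the same 8 rats, overlapped between the groups. Astrocyte markers summed to 2071 to 2340.1 CPM in saline rats and 2001 to 2478 CPM in METH rats. Oligodendrocyte markers summed to 12874 to 18636 CPM in saline rats and 12166 to 18143 CPM in METH rats. Endothelial markers summed to 437 to 633 CPM in saline rats and 440.0 to 468 CPM in METH rats, with the highest value in saline replicate 2. No gene of these 3 lists was called by edgeR's quasi-likelihood test, while at an unadjusted p below 0.05 the counts were 0 for astrocyte, 0 for oligodendrocyte and 2 for endothelial markers, both lower.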
